A study of Mus musculus with 14 samples.

Results

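The cytosolic ribosome is built from a large and a small subunit, each made of ribosomal RNA and a set of ribosomal proteins, and almost every ribosomal protein is encoded by a gene of its own. The genes examined here are the protein-coding mouse genes whose symbol is Rpl or Rps followed by a number and at most 1 letter, together with Rplp0, Rplp1, Rplp2 and Rpsa. The symbol rule found 81 of 21757 protein-coding genes in the GENCODE annotation of GRCm39. They comprised 43 genes of the large subunit, 30 of the small subunit including Rpsa, 3 genes of the ribosomal stalk and 5 paralogs whose symbol ends in l. The 81 genes lay on 19 chromosomes, with 4 of them on the X chromosome, and 14 had the transcription start site (TSS) of another protein-coding gene within 2 kb.

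Ribosomal protein genes are transcribed at high rates in growing cells, and their products are needed in equal amounts. Their mRNAs usually begin with a pyrimidine tract at the cap, through which their translation follows the supply of nutrients. When muscle stem cells (MuSCs) leave quiescence, ribosome production rises before the cells divide. The question was how often pSMAD1/5/9 and SMAD4 peaks lay at these promoters, compared with other promoters that carry H3K27ac.

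The data were CUT&Tag peak lists. In CUT&Tag an antibody directs a transposase to the protein it recognises, and the DNA cut there is sequenced. MuSCs were sorted by a Pax7-driven green fluorescent reporter from muscles of female 9-week-old C57BL/6N(Tg(Pax7-EGFP)Tajb) mice and grown in culture. All cells, control cells included, were starved for 6 h with 200 ng/mL of the soluble BMP receptor BMPR1A-Fc, a trap for BMPs in the medium. BMP6-stimulated cells then received 100 ng/mL BMP6 for 1 h, and control cells received the vehicle of 4 mM HCl and 0.1% BSA. Antibodies were directed against the phosphorylated BMP effectors (pSMAD1/5/9), their common partner SMAD4, and H3K27ac, a histone mark of active promoters and enhancers. There were 2 biological replicates per antibody and condition, which the authors combined into 1 consensus list per group, so no comparison between conditions had a replicate error and no test was made. Shares carry Wilson 95% intervals, which cover counting error only, and members are not replicates of a condition. The lists held 7339 pSMAD1/5/9, 12860 SMAD4 and 78050 H3K27ac peaks in BMP6-stimulated cells, and 949, 8577 and 67790 peaks in control cells. The cell label was checked by H3K27ac within 2 kb of the TSS of marker genes. All 8 MuSC markers (Pax7, Myf5, Myod1, Cdh15, Itga7, Vcam1, Sdc4 and Des) had a peak in both conditions. In either condition the mark was also at 0 of 3 endothelial markers, 1 of 3 blood markers (Cd68) and 1 of 3 fibro-adipogenic markers (Cd34).

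Promoter sequence is shown for 6 members on which the results turn. Rpl10 had the highest-ranking pSMAD1/5/9 peak of the members, Rpl13a the single one present in control cells, Rpl10a the highest-ranking SMAD4 peak, and Rps23 peaks of both factors with strong H3K27ac. Rpl27a and Rps4x ranked among the 5 members with the highest H3K27ac signal after BMP6, without a SMAD peak in any list, although 1 replicate column set the rank of Rpl27a. Each run is 150 bases of GRCm39 upstream of the canonical TSS, read in the sense of the gene, 5′ to 3′, and moved further upstream where an annotated exon of a protein-coding gene was in the way. Capitals mark matches on either strand to the motifs counted below: GGCGCC or GGAGCC and GTCTG of SMAD proteins, CCGGAAG of ETS factors, GGGCGG of SP1 and TATAAA.
Rpl10 (chrX:73314268-73314417, plus strand): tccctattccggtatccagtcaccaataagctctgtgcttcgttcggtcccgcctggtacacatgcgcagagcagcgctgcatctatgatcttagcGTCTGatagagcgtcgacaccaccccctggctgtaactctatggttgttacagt
Rpl13a (chr7:44778264-44778413, minus strand): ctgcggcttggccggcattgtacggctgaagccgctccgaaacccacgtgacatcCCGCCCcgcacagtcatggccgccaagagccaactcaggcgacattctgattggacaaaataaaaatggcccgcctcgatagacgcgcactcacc
Rpl10a (chr17:28546994-28547143, plus strand): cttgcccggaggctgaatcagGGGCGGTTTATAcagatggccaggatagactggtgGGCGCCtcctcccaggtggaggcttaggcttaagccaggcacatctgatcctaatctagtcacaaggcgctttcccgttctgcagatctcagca
Rps23 (chr13:91070927-91071076, plus strand): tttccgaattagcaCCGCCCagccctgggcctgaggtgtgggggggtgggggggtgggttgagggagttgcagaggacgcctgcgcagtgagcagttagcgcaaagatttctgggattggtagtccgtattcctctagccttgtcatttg
Rpl27a (chr7:109118104-109118253, plus strand): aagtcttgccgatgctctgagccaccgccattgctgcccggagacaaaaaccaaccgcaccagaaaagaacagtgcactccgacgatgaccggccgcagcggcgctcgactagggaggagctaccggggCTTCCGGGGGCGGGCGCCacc
Rps4x (chrX:101233015-101233164, minus strand): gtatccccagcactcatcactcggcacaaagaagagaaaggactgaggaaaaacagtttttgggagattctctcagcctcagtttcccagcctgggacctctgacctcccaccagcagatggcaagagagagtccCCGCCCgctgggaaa
The Rpl10 run spans bases -188 to -39 from its TSS and the Rpl13a run bases -228 to -79, while the other 4 end at base -1. GTCTG stood in the Rpl10 run and GGCGCC in the runs of Rpl10a and Rpl27a, that is with and without a SMAD peak. The runs of Rps23 and Rpl13a, where both factors had a peak, held no SMAD motif, and neither did that of Rps4x. In the 300 bp window counted below, which reaches past the runs, Rpl13a held GTCTG, Rps4x held GTCTG and GGCGCC or GGAGCC, and Rps23 held neither. The runs of Rpl10, Rpl13a, Rpl10a and Rps23 lie inside their pSMAD1/5/9 peaks of BMP6-stimulated cells. A match is only a description of these letters.

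H3K27ac marked 77 of 81 members in BMP6-stimulated cells (95.1%, interval 88.0 to 98.1), against 55.1% of all promoters. In control cells 76 of 81 members were marked (93.8%, interval 86.4 to 97.3), against 53% of all promoters. The 4 members without the mark in either condition were the paralogs Rpl10l, Rpl39l, Rpl3l and Rps4l. Rpl3l is the muscle paralog of Rpl3 and Rpl10l a testis paralog of Rpl10. The remaining paralog, Rps27l, a p53 target, had a peak in both conditions. Rps25, a small-subunit protein used in internal initiation by some viral RNAs, had no H3K27ac peak in control cells and a weak one in BMP6-stimulated cells, which ranked 66055 of 78050 and had its summit 1577 bp downstream of the TSS. The 75 core members other than Rps25 were marked in both conditions.

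The H3K27ac signal placed most of these promoters above the median but outside the most strongly acetylated ones. Promoters with H3K27ac were ranked by the signal of their strongest peak within 2 kb, where the strongest promoter stands near 0% and the weakest at 100%. The members' median rank was 35.5% in BMP6-stimulated cells, with the middle of the distribution between 23.6 and 47.8%, and the median of the other genes was 50.2%. In control cells the members' median was 33.6% against 50.1%. The strongest 20% of promoters held 17 of 77 members (22.1%) after BMP6 and 16 of 76 (21.1%) in control cells, and the strongest 10% held 7 members in each condition. The weakest 20% held 1 member (Rps25) after BMP6 and 0 in control cells. The members thus gathered in the upper middle of the ranking, while their shares at its top were close to the 20 and 10% that an even spread gives. Their strongest H3K27ac peaks had a median width of 3080 bp against 2380 bp for the other genes after BMP6, and 2850 against 2100 bp in control cells.

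**Figure D1:**
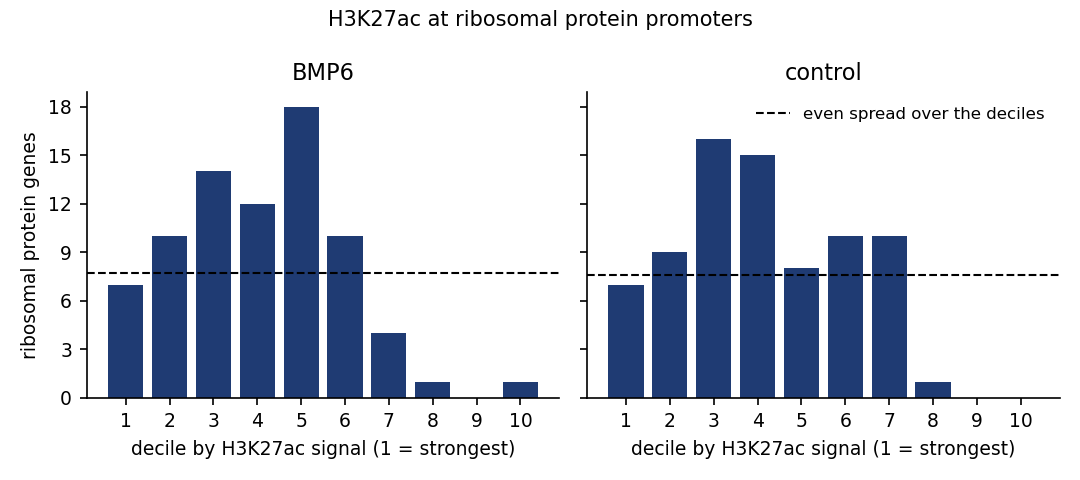
Number of ribosomal protein genes (vertical axis) in each decile of all promoters with H3K27ac, ordered by signal (horizontal axis, 1 = strongest), for BMP6-stimulated and control cells. The dashed line is an even spread of 7.7 or 7.6 genes, and the highest bars are 18 genes in decile 5 after BMP6 and 16 genes in decile 3 in control cells.

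The highest H3K27ac ranks among the members were those of Rpl27a, Rpl10, Rpl36a, Rps4x and Rpl39. Rpl27a stood at 0.851% after BMP6 and at 35.2% in control cells. Its BMP6 peak was 23940 bp wide and ranked 9468 in the signal of the first replicate column and 65 in that of the second, so 1 column set its position. Its control peak was 4300 bp wide and ranked 8367 and 8714. The other 4 are the members on the X chromosome, and their ranks after BMP6 were 1.83% (Rpl10), 2.77% (Rpl36a), 4.82% (Rps4x) and 5.39% (Rpl39), with 1.23, 12.2, 1.62 and 7.24% in control cells. All 4 lay in the strongest 20% in both conditions, as did 13 of 73 marked autosomal members after BMP6 (17.8%) and 12 of 72 in control cells (16.7%). The other X-linked genes with H3K27ac also ranked high, with 55.6% of 482 in the strongest 20% after BMP6 against 18.5% of the other autosomal genes. The lowest-ranking members beside Rps25 were Rpl26, Rplp1, Rps27 and Rps28, between 64.2 and 71.8% after BMP6.

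pSMAD1/5/9 peaks lay within 2 kb of the TSS of 20 of 77 members with H3K27ac after BMP6 (26.0%, interval 17.5 to 36.7), where 21.7% of all promoters with H3K27ac had one. In control cells 1 of 76 members had a pSMAD1/5/9 peak (1.32%, interval 0.233 to 7.08), against 3.27% of all promoters with H3K27ac. SMAD4 peaks lay at 27 of 77 members after BMP6 (35.1%, interval 25.3 to 46.2), against 32.2%. In control cells SMAD4 peaks lay at 17 of 76 members (22.4%, interval 14.5 to 32.9), against 23.4%. In all 4 lists the background lay inside the interval of the members. Either factor was present at 35 of 77 members after BMP6 (45.5%, interval 34.8 to 56.5) and at 37.1% of the 11911 other promoters with H3K27ac. Over the 4 SMAD lists 44 of 81 members, the paralogs without H3K27ac included, had no peak at all. That count over 4 lists was not made for the other promoters. After BMP6 alone, 7492 of the 11911 others had neither factor.

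**Figure D2:**
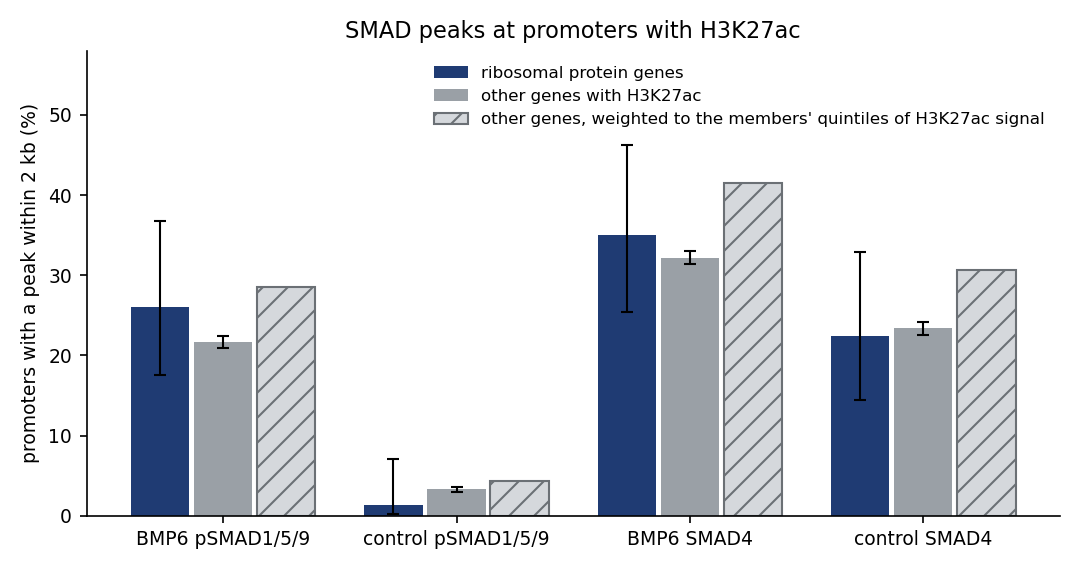
Share of promoters with H3K27ac that had a peak within 2 kb of the TSS (vertical axis, %) in each of the 4 SMAD lists (horizontal axis), for ribosomal protein genes, other genes, and other genes weighted to the members' quintiles of H3K27ac signal. Error bars are Wilson 95% intervals, and the members' interval holds both comparison values in every list, for example 21.7 and 28.6% within 17.5 to 36.7% for pSMAD1/5/9 after BMP6.

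SMAD peaks became more frequent with H3K27ac signal, so the members were also set beside promoters of like signal. Promoters with H3K27ac were divided into 5 quintiles by signal. For the other genes the share with pSMAD1/5/9 after BMP6 was 48.2% in the strongest quintile, 31.6% in the next, 18.4% in the middle one, and 8.61 and 2.00% in the weakest ones. The members had 8 of 17, 5 of 26, 7 of 28, 0 of 5 and 0 of 1. These are 47.1, 19.2 and 25% of the members in the stronger 3 quintiles, a value close to the other genes, one below and one above them. SMAD4 after BMP6 lay at 62.5, 47.0, 29.5, 16.3 and 5.88% of the other promoters, and at 9 of 17, 9 of 26, 9 of 28, 0 of 5 and 0 of 1 members. In control cells SMAD4 lay at 9 of 16 members of the strongest quintile and 5 of 31 of the next, against 49.7 and 34.6% of the other genes. Weighted to the quintiles in which the members lay, the other genes would have had 28.6% pSMAD1/5/9 and 41.5% SMAD4 after BMP6, and 4.34 and 30.6% in control cells. These are 22.0 pSMAD1/5/9 and 32 SMAD4 genes after BMP6 where 20 and 27 members were counted, and 3.29 and 23.3 genes in control cells where 1 and 17 were counted. All 4 counts of members were below the weighted value, and all 4 intervals still held it.

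**Figure D3:**
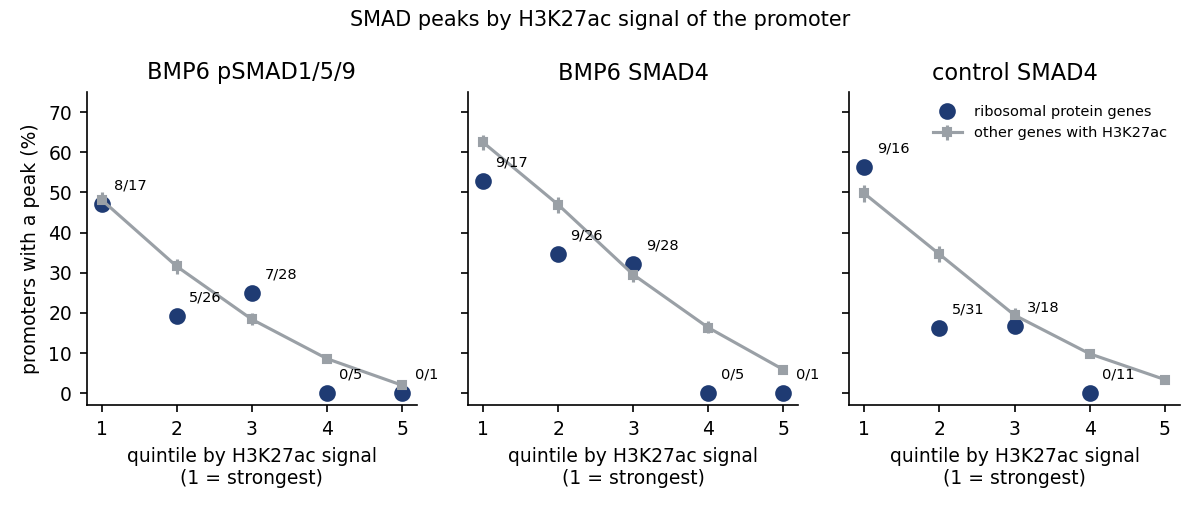
Share of promoters with a peak (vertical axis, %) of pSMAD1/5/9 after BMP6, SMAD4 after BMP6 and SMAD4 in control cells by quintile of the promoter's H3K27ac signal (horizontal axis, 1 = strongest) for ribosomal protein genes (circles, with members with a peak of members in the quintile) and other genes with H3K27ac (squares with Wilson 95% intervals). The share of other genes falls from 48.2 to 2.00% for pSMAD1/5/9 after BMP6, and no member of signal quintiles 4 and 5 had a SMAD peak.

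With quintiles of summed peak width in place of signal, pSMAD1/5/9 after BMP6 lay at 9 of 15, 4 of 34, 3 of 18, 4 of 9 and 0 of 1 members, against 41.3, 29.99, 21.7, 11.3 and 4.38% of the other genes, so the members' shares did not fall steadily with either measure. The 20 members with pSMAD1/5/9 after BMP6 had a median H3K27ac rank of 23.8%, and the 57 marked members without it had 38.9%. For SMAD4 after BMP6 the medians were 27.5 and 39.9%. The other genes showed a wider gap, with 23.7 against 58.8% for pSMAD1/5/9 and 27 against 62.4% for SMAD4.

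After BMP6 12 members had peaks of both factors, 8 had pSMAD1/5/9 alone, 15 SMAD4 alone and 46 neither. Members with both included Rpl7, Rpl10, Rpl10a, Rpl13a, Rpl21, Rpl27, Rpl37, Rpl41, Rps2, Rps19 and Rps23, and in all 12 the strongest peaks of the factors overlapped. Of the members with pSMAD1/5/9, 60% also had SMAD4, and of those with SMAD4, 44.4% also had pSMAD1/5/9. For the other promoters with H3K27ac the same shares were 77.3 and 52.2%. The members' shares rest on 12 of 20 and 12 of 27 genes, and no interval was computed for them. Every strongest SMAD peak at a member overlapped an H3K27ac peak in both conditions. The paper reports overlap with H3K27ac for most SMAD peaks of the genome, so this is not particular to the members. Overlap between the peaks of the factors was not counted at the other promoters.

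Rpl13a was the only member with a pSMAD1/5/9 peak in control cells. RPL13A is a large-subunit protein that can leave the ribosome and repress translation of inflammatory mRNAs. Its control peak ranked 482 of 949, with ranks of 529 and 428 in the 2 replicate columns. Its pSMAD1/5/9 peak after BMP6 ranked 2655 of 7339, with 3028 and 2305 in the columns. The promoter also carried SMAD4, at rank 3008 of 12860 after BMP6 and 2489 of 8577 in control cells, so it was present in all 4 SMAD lists. Its H3K27ac peak was 8190 bp wide and ranked 4342 after BMP6, and was 7600 bp wide and ranked 1723 in control cells.

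Rpl10 had the highest-ranking pSMAD1/5/9 peak of all members. RPL10 joins the large subunit last, in the cytoplasm, near the site where peptide bonds form. The peak lay at chrX:73313791-73314510, ranked 156 of 7339 and was at 328 and 65 in the 2 columns, both within the strongest 5% of the list. There was a weaker second pSMAD1/5/9 peak in the gene, at rank 6547. Rpl10 carried SMAD4 as well, at rank 3301 after BMP6 and 1517 in control cells. In the SMAD4 lists the columns differed more, with 2591 and 5782 after BMP6 and 917 and 4456 in control cells.

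The next pSMAD1/5/9 peaks by rank included those of Rps29 (1725), Rps23 (1931), Rpl10a (2213) and Rpl13a. RPS29 is a small zinc-binding protein of the small subunit, RPS23 lies near the decoding centre, and RPL10A forms the L1 stalk of the large subunit. In the 2 columns the ranks were 1967 and 1555 for Rps29, 1823 and 2250 for Rps23, and 3226 and 1421 for Rpl10a. All of these stood in the stronger part of both columns. Rpl37 (3513), Rpl27 (3864), Rps24 (4090) and Rps2 (4297) followed near or below the median of the list. RPS24 is one of the small-subunit proteins altered in Diamond-Blackfan anaemia.

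The highest-ranking SMAD4 peaks after BMP6 were those of Rpl10a (1365 of 12860), Rpl7 (1410), Rpl41 (2074), Rpl37 (2878), Rpl13a and Rpl10. RPL7 is a protein of the large subunit and RPL41 the shortest ribosomal protein. Rpl10a ranked 1572 and 1270 in the 2 columns, Rpl7 1537 and 1422, and Rpl41 2615 and 1501. Among these the columns were closest for Rpl7 and furthest apart for Rpl41, and those of Rpl10, given above, were further apart still. In control cells the SMAD4 peak of Rpl10a ranked 1944 of 8577, whereas that of Rpl7 ranked 7923, near the end of the list. The TSS of Rdh10, another protein-coding gene, lies 669 bp from that of Rpl7, and the SMAD4 peak of 1120 bp had its summit at -595 bp from the Rpl7 TSS, so it cannot be assigned to one of these genes. Rps23 (3591), Rpl21 (4317), Rps19 (4382) and Rpl22 (4693) completed the leading 10, of which RPS19 is the protein most often altered in Diamond-Blackfan anaemia.

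**Figure D4:**
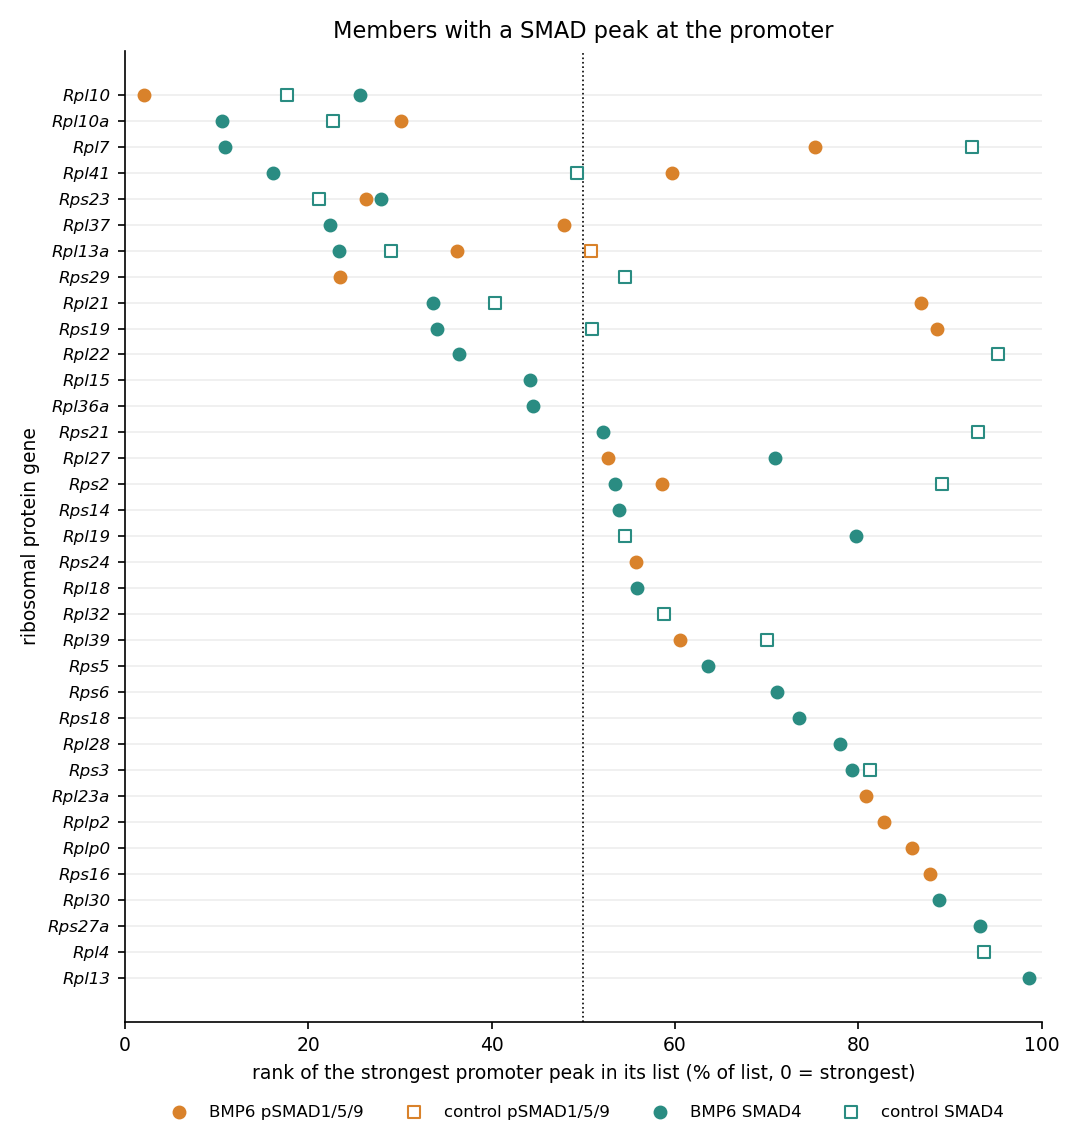
Rank of the strongest peak within 2 kb of the TSS, as a percentage of its list (horizontal axis, 0 = strongest), for 35 of the 37 ribosomal protein genes with a SMAD peak in any list (rows). Filled symbols are BMP6-stimulated cells and open symbols control cells, orange stands for pSMAD1/5/9 and green for SMAD4, the dotted line is the median of a list, and Rpl10 at 2.13% is the only gene plotted with a peak in the strongest 10%.

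Ranked by the sum of both replicate columns, most SMAD peaks at the members lay below the median of their lists. The median rank of the strongest pSMAD1/5/9 peak after BMP6 was 59.1% for the 20 members and 48.9% for the 2590 other promoters with a peak, and 13 of the 20 lay below the median of the list, against 49.1% of the others. For SMAD4 the medians were 53.4 and 42.8% after BMP6, with 15 of 27 members below the median of the list, and 54.6 and 45.4% in control cells, with 11 of 17. The strongest 10% of a list held 1 member peak of pSMAD1/5/9 after BMP6 (5.00%) against 9.34% of the other promoters, and 0 of 27 and 0 of 17 member peaks of SMAD4 against 10.5% in each condition. By contrast, 34 of 77 member H3K27ac peaks (44.2%) were in the strongest 10% of that list after BMP6, against 33.5% of the other promoters. In the strongest 10% of both replicate columns there were 20 of 77 (26.0%) against 22.8%. The stricter irreproducible discovery rate (IDR) of 0.01 was passed by 9 of 20 members for pSMAD1/5/9 after BMP6 and by 13 of 27 for SMAD4, against 51.2 and 57.1% of the other promoters. In control cells 4 of 17 members passed it for SMAD4, which is 23.5% against 45.0%, and the control pSMAD1/5/9 peak of Rpl13a did not. The median ranks in the columns alone were 51.6 and 63.3% for pSMAD1/5/9 after BMP6 and 54.3 and 49.0% for SMAD4. Below the median in both columns were 8 of 20 pSMAD1/5/9 (40%) and 10 of 27 SMAD4 (37.0%) member peaks after BMP6. The other promoters had 36.0 and 30.8%. In control cells it was 7 of 17 for SMAD4 (41.2%) against 34.9%.

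The lists of both conditions were then set side by side for each factor. pSMAD1/5/9 was listed in both conditions at 1 of 81 members, in BMP6-stimulated cells alone at 19, and at 0 in control cells alone. The 81 include the paralogs without H3K27ac, which had no SMAD peak. Among the 12089 other promoters with H3K27ac in either condition pSMAD1/5/9 was listed in both at 329, in BMP6-stimulated cells alone at 2257, and in control cells alone at 48. A control peak was thus listed at 5% of the members with pSMAD1/5/9 after BMP6 and at 12.7% of such others. SMAD4 was listed in both conditions at 13 members, in BMP6-stimulated cells alone at 14, and in control cells alone at 4. The other promoters had 2039, 1795 and 641. Among promoters with SMAD4 after BMP6, 48.1% of the members and 53.2% of the others were also listed in control cells. Of the promoters with SMAD4 in control cells, 76.5% of the members and 76.1% of the others kept a peak after BMP6. A list contains only what passed the IDR threshold, so a promoter absent from one list is not shown to have lost the factor.

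The 4 members with SMAD4 in control cells alone were Rps29 (rank 4674 of 8577), Rpl32 (5043), Rpl39 (6008) and Rpl4 (8040). Rps29 and Rpl39 had pSMAD1/5/9 after BMP6, and Rpl32 and Rpl4 had no SMAD peak after BMP6. All 4 control peaks ranked below the median of the list. So did 11 of all 17 member SMAD4 peaks in control cells, against 46.0% of the other promoters with a peak. Ranks were not counted for the other promoters with SMAD4 in control cells alone. The peak of Rpl4 had its summit at -626 bp from the Rpl4 TSS, and the TSS of Zwilch lies 232 bp from that of Rpl4.

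The peaks sat on the start sites. Of the strongest pSMAD1/5/9 peaks after BMP6, 19 of 20 covered the member's TSS (95%), against 71.3% for the other promoters with a peak, and all 20 had the summit within 500 bp of it, against 80.1%. For SMAD4 24 of 27 after BMP6 (88.9%) and 15 of 17 in control cells (88.2%) covered the TSS, against 69.7 and 67.1%. The exceptions for SMAD4 after BMP6 included Rpl10, with a peak beside the TSS, and Rpl13, with a peak at -1910 bp that ranked 12687 of 12860. The summits of the pSMAD1/5/9 peaks lay at a median of -67.5 bp, and 15 of 20 (75%) were upstream of the TSS, against -17 bp and 53.7% for the other promoters. SMAD4 summits had a median of -65 bp after BMP6 and -61 bp in control cells, against -1 and -10 bp. H3K27ac summits lay on the other side, at a median of 160 bp downstream after BMP6 and 120 bp in control cells, against 139 and 127 bp for the other promoters. The deposited summit often differed from the mean of the replicate summits. With that mean the members' pSMAD1/5/9 median was -83.5 bp and 16 of 20 were upstream, and with the peak midpoint it was -40.5 bp and 11 of 20, against 50.5% of the others.

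**Figure D5:**
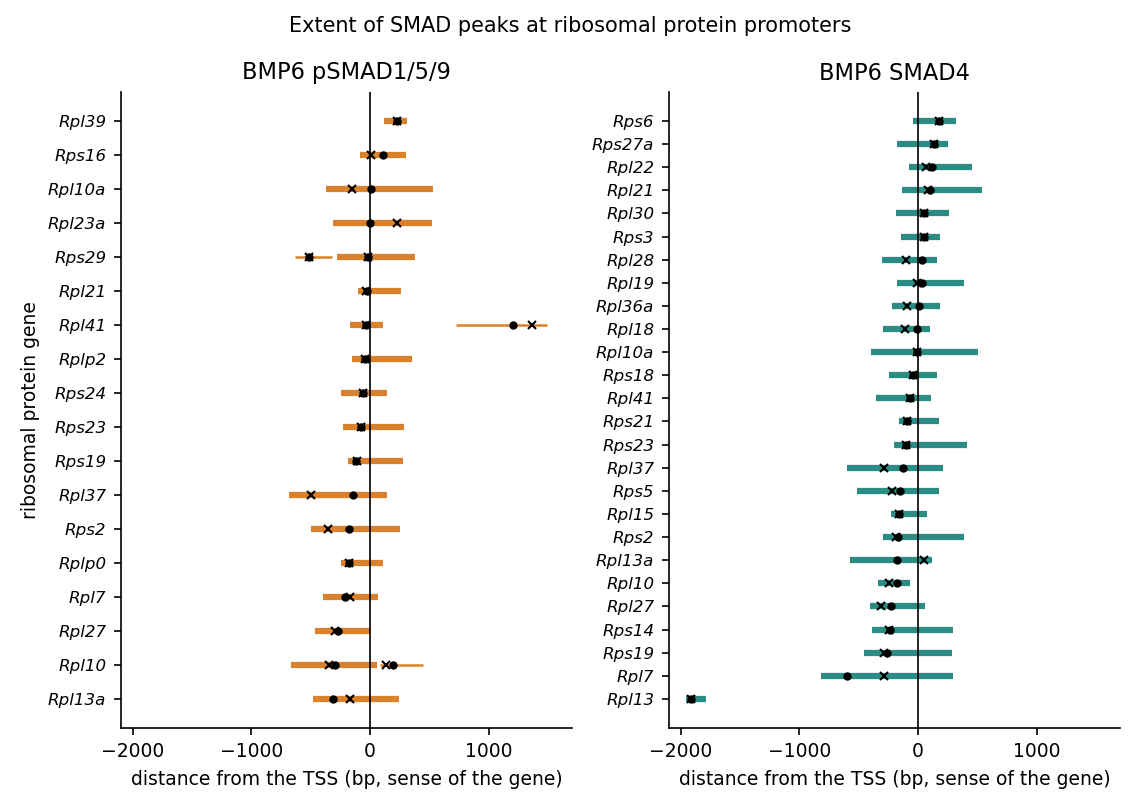
Extent of the peaks of pSMAD1/5/9 and SMAD4 in BMP6-stimulated cells (thick bars, strongest peak, and thin bars, further peaks) relative to the TSS in bp (horizontal axis, negative values upstream) at 18 of 20 and 26 of 27 members with a peak (rows, ordered by summit). Circles are the deposited summits and crosses the means of the replicate summits, and the thick bars cross the TSS in 17 of 18 and 24 of 26 rows.

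By subunit, pSMAD1/5/9 after BMP6 lay at 11 of 43 large-subunit genes (25.6%, interval 14.9 to 40.2) and 7 of 30 small-subunit genes (23.3%, interval 11.8 to 40.9). SMAD4 after BMP6 lay at 17 of 43 (39.5%, interval 26.4 to 54.4) and 10 of 30 (33.3%, interval 19.2 to 51.2), and the intervals of the subunits overlapped. The stalk proteins recruit elongation factors to the ribosome. Rplp0 and Rplp2 had pSMAD1/5/9 after BMP6, at ranks 6297 and 6079 of 7339, Rplp1 had none, and SMAD4 was at 0 of 3 in both conditions. RPS6, the substrate of the S6 kinases, had SMAD4 at its gene after BMP6, at rank 9149 of 12860, with 8286 and 10163 in the columns, and no other SMAD peak. Rpsa, whose product also serves as a laminin receptor, had H3K27ac and no SMAD peak. Of the members on the X chromosome, Rpl10 and Rpl39 had pSMAD1/5/9 after BMP6, Rpl36a had SMAD4 at rank 5718, and Rps4x had neither. None of the 5 paralogs had a SMAD peak.

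Motifs were counted in the 300 bp from 250 bp before to 50 bp after each TSS, on both strands. GGCGCC or GGAGCC, which BMP-activated SMADs bind, was present at 33 of 81 members (40.7%, interval 30.7 to 51.6), against 38.4% of all promoters and 47.1% of the other promoters with H3K27ac. GTCTG was present at 37 members (45.7%) against 48.5% of all promoters, and the palindrome GTCTAGAC at 0 against 0.267%, where 0 of 81 allows up to 4.53% by the Wilson interval. Of the 20 members with pSMAD1/5/9 after BMP6 7 had GGCGCC or GGAGCC (35.0%), and of the 61 without it 26 had (42.6%). In the 200 bp around the summit, GGCGCC or GGAGCC was found at 6 of 23 pSMAD1/5/9 peaks of members after BMP6 (26.1%, interval 12.5 to 46.5) and 44.1% of 2455 peaks at other promoters. For SMAD4 it was 8 of 27 (29.6%, interval 15.9 to 48.5) against 44.2% after BMP6, and 3 of 17 (17.6%, interval 6.19 to 41.0) against 43.1% in control cells. The value of the other promoters lay inside the members' interval in both lists of BMP6-stimulated cells. Around peak midpoints it lay inside for control SMAD4, with 5 of 17 (29.4%, interval 13.3 to 53.1) against 42.3%. For pSMAD1/5/9 after BMP6 it then lay above the interval, with 5 of 23 (21.7%, interval 9.66 to 41.9) against 43.7%. Around the means of the replicate summits, pSMAD1/5/9 after BMP6 again had 5 of 23, against 44.4%. Control SMAD4 had 2 of 17 there (interval 3.29 to 34.3) against 41.9%, and both values lay above the intervals. For SMAD4 after BMP6 the value lay inside with either centre. The median GC content of these windows was lower at the members, 58 against 64.5% for pSMAD1/5/9 after BMP6, and its part in the difference was not tested.

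Motifs of other promoter factors were counted in the same windows. CCGGAAG, the site of ETS factors, was at 25 members (30.9%, interval 21.9 to 41.6), against 10.3% of all promoters and 15.7% of the other promoters with H3K27ac. The M1 motif TCTCGCGA was at 11 members (13.6%, interval 7.76 to 22.7), against 1.23 and 1.91%, and in the 250 bp before the TSS alone at 7 (8.64%) against 0.887 and 1.35%. The 11 members included Rpl4, Rpl7a, Rpl17, Rpl23a, Rpl26, Rps6, Rps15a, Rps19 and Rps28. CAGCTG, an E-box, was at 5 members (6.17%, interval 2.67 to 13.6) against 14.9 and 14.3%. GGGCGG of SP1 was at 41 members (50.6%) against 42.5 and 59.1%, and AAGATGG of YY1 at 6 (7.41%) against 5.74 and 6.37%. TATAAA was at 10 (12.3%) against 13.2 and 7.96%, but in the 250 bp before the TSS alone it was at 4 (4.94%) against 11.9 and 7.14%, which turns the direction against the promoters with H3K27ac. The AP-1 site TGACTCA or TGAGTCA was at 3 (3.70%) against 4.70 and 3.70%. A run of at least 5 pyrimidines beginning with C at the annotated TSS itself was present at 7 members (8.64%, interval 4.25 to 16.8). The shares were 3.62% of all promoters and 4.05% of the other promoters with H3K27ac. Within 3 bp of the TSS such a run was at 16 members (19.8%, interval 12.5 to 29.7) against 12.6 and 13.4%. The annotated TSS may differ by some bases from the one used in these cells.

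Gene groups with related functions gave shares on either side of the members. Of 77 mitochondrial ribosomal protein genes with H3K27ac, 9 had pSMAD1/5/9 after BMP6 (11.7%, interval 6.27 to 20.7) and 14 had SMAD4 (18.2%, interval 11.2 to 28.2). The shares of all promoters with H3K27ac were 21.7 and 32.2%. In control cells SMAD4 lay at 17 of the mitochondrial genes (22.1%), 8 of 17 translation factor genes (47.1%) and 7 of 29 ribosome biogenesis genes (24.1%), against 23.4% of all promoters with H3K27ac. Control pSMAD1/5/9 lay at 0, 2 and 0 of them, against 3.27%. After BMP6, 8 of the 17 marked translation factor genes had pSMAD1/5/9 (47.1%, interval 26.2 to 69.0) and 9 had SMAD4 (52.9%). Of the 29 marked ribosome biogenesis genes, 8 had pSMAD1/5/9 (27.6%) and 12 SMAD4 (41.4%). These groups were set beside all promoters with H3K27ac and not beside promoters of like signal. The part of H3K27ac signal in their shares was not tested.

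Counting the gene body and 20 kb on either side, as the study did for bound genes, gave more peaks but also a higher background. pSMAD1/5/9 was then found at 33 of 81 members after BMP6 (40.7%, interval 30.7 to 51.6) against 29.1% of all genes, and at 7 (8.64%, interval 4.25 to 16.8) against 5.97% in control cells. SMAD4 was found at 43 members after BMP6 (53.1%, interval 42.3 to 63.6) against 39.3%, and at 34 in control cells (42.0%, interval 31.8 to 52.8) against 30.8%. The background lay below the members' interval in 3 of these 4 lists and inside it for pSMAD1/5/9 in control cells. This background holds all genes, with and without H3K27ac, while 77 members carried the mark after BMP6, and the part of the mark in the difference was not tested.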

How the data were processed

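CUT&Tag was profiled in BMP6-stimulated and control MuSCs. Of 14 samples, 12 entered the 6 consensus lists, and 2 made with no primary antibody entered none. The authors aligned reads, subsampled to equal depth per antibody, to GRCm39 with Bowtie2 2.5.4 and filtered them with SAMtools 1.21 (versions also in the submitters' processing notes), called peaks per replicate with JAMM, and kept those with an IDR of at most 0.05. The deposited signal is a score from the authors' peak caller, the sum of both replicate columns, so ranks within a list were used. The deposited IDR is a −log10 value. The lists hold no reads, so the number behind a single peak is not known here, although the methods set a minimum depth per library. The replicate columns carry no number.

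Promoters were 2 kb on either side of the canonical TSS (GENCODE M39, GRCm39), with an overlap of at least 1 bp. Wilson 95% intervals cover counting error only. Python 3.11.15, pandas 2.3.3, numpy 2.4.6, scipy 1.17.1 and matplotlib 3.10.9 were used, and the counting was tested on simulated data. No p-value was computed, since each group is 1 list. The members, gene lists, motifs and alternatives were chosen with earlier results of these data known. Named genes were members with control pSMAD1/5/9, the 10 highest ranks per factor after BMP6, members lacking H3K27ac in a condition, members whose peak of a factor was in control cells alone, paralogs, stalk genes, Rpsa, Rps6, X-linked members, and the 5 highest and 5 lowest H3K27ac ranks. Other members were named after their values were seen, and some genes are not reported here by name. Alternatives were a stricter IDR, other windows, member sets and peak choices, single columns and H3K27ac width. Replicate summits, peak midpoints and deciles were added after seeing the data.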

Additional observations from a re-analysis of the deposited data

How the results depend on the processing

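No paired analysis was possible because the results come from no test, with 1 consensus list per group and replicate columns that carry no replicate number. Of 164 alternative values, 142 stayed within a limit set for their kind. The limits were 1.5 times the count, the spread between the replicate columns, the counting interval, and for positions the standard deviation of members' summit distances. The position limit was wide, so H3K27ac medians of 523 and 475.5 bp with midpoints counted as unchanged from 160 and 120 bp. The column spread came from the same single-column medians that it judged. At an IDR of 0.01 the members with a peak fell to 9 (pSMAD1/5/9) and 13 (SMAD4) after BMP6 and to 0 and 4 in control cells, the other H3K27ac promoters to 1324 and 2196, and 50 and 1207, and the members with a peak in BMP6-stimulated cells alone to 9 for either factor. The members' share of promoters with pSMAD1/5/9 after BMP6 was above that of the other genes in 10 of 10 alternatives of threshold, window and gene set and below it in 10 of 10 for control cells, but weighting the other genes to the members' H3K27ac signal or width put the members below them (26.0 against 27.6 to 28.8% for pSMAD1/5/9 after BMP6). For SMAD4 after BMP6 it was above in 9 of 10, with 17.1 against 19.1% at an IDR of 0.01, and in control cells above in 3 of 10. Ranking by 1 replicate column gave median ranks of 51.6 to 63.3% (pSMAD1/5/9) and 49.0 to 54.3% (SMAD4) after BMP6, 45.1 to 55.7% and 60.5 to 66.4% in control cells, and 11 to 11.2% and 12.3 to 12.4% for H3K27ac after BMP6 and in control cells. The control pSMAD1/5/9 summit of Rpl13a moved from -286 bp to -124 bp with the mean of the replicate summits and to -255 bp with the midpoint. Without the 50 bp after the TSS, the M1 motif was at 7 and TATAAA at 4 members (4.94 against 7.14% of the other H3K27ac promoters), and the pyrimidine tract at the TSS has no value. Around peak midpoints GGCGCC or GGAGCC was at 5 of 17 control SMAD4 peaks, where the other promoters' share lay inside the members' interval. At pSMAD1/5/9 peaks after BMP6 it was at 5 of 23 around midpoints and around replicate summit means. The other promoters' share lay above the interval in both cases. The cause of these changes was not tested, apart from the stricter threshold, which keeps fewer peaks.

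Counts of members below 20 set wide intervals, and 2 replicates merged into 1 list leave no replicate error for any share. The pSMAD1/5/9 list of control cells had 1 member peak. A broad H3K27ac peak can cover several genes, and 14 members share their window with another TSS, so a peak there may belong to the neighbour.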
